A study of Mus musculus with 38 samples.

Results

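Borderline lesions (BL) of the mouse thyroid were compared with apparently asymptomatic thyroids (AT) of mice that carried the same transgene, each mouse on its own Mouse Gene 1.0 ST array. The members were chosen by lesion and by *BRAF* status as the labels give them, which took 10 BL mice and 5 AT *BRAF*(+) mice, 15 of the 38 mice of the series. All 15 expressed a human *BRAF* V600E cDNA with an HA tag, placed under the bovine thyroglobulin promoter in FVB/N mice, and *BRAF*(+) means that the transgene was detected as RNA. Neither group therefore lacks the oncogene, and the comparison asks what differed in the gland when cells with altered nuclei had appeared in scattered foci. The BL mice were 8 females and 2 males aged 4 to 21 months (median 10.5), and the AT *BRAF*(+) mice were 4 females and 1 male aged 7 to 11 months (median 10). These ages are those of the labels, and the age classes that the study gives for BL do not match them. Most mice of both groups came from 1 transgenic line, tg3, the others from tg2, and the labels do not tie a line to each mouse. Each gland was divided, RNA coming from one portion and the histological grade from the other, so the array did not see the section that was graded. In such bulk tissue fewer cells of a type and less RNA per cell cannot be told apart. The other groups of the series were used as side values: PTC (papillary thyroid carcinoma, 10 mice), benign hyperplastic lesions (BHL, 4 *BRAF*(+) mice and 4 *BRAF*(-) mice) and 5 AT *BRAF*(-) mice. By label the ages were 6 to 21 months in PTC, 4 to 11 in BHL *BRAF*(+), 6 to 24 in BHL *BRAF*(-) and 4 to 12 in AT *BRAF*(-). Each of these groups held both sexes. The study genotyped its *BRAF*(-) mice as non-transgenic, except 1 of line tg1 that carried the transgene without its RNA.

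BRAF is a kinase that passes signals from RAS to MEK and ERK, and the V600E form is active without an upstream signal. ERK output includes transcription factors of the ETS and AP-1 families, cyclin D1, and inhibitors of the SPRED, Sprouty and DUSP families that dampen the pathway. In thyrocytes sustained ERK signalling is known to lower genes of iodide handling and hormone synthesis, and this mutation is the commonest driver of human PTC.

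Thyroid identity was present in both groups. *Tg*, which encodes thyroglobulin, ran from 13.30 through a median of 13.62 to 13.73 in BL on the log2 scale of the arrays, against 13.62, 13.71, 13.62, 13.65 and 13.62 in AT *BRAF*(+) mice M_1003, M_523, M_779, M_945 and M_948. *Braf* ran from 9.19 through 9.60 to 10.19 in BL, against 9.28, 9.24, 9.49, 9.33 and 9.57 in the same AT mice. The probe set belongs to the mouse gene and its reading of the human transgene is not established here. The groups overlapped, with 6 of 10 BL mice above every AT *BRAF*(+) mouse and 1 below. The difference of means was 0.32 in BL minus AT *BRAF*(+) (two-sided exact permutation p = 0.0656, where 0.000333 is the smallest p that the 3003 assignments allow). Without BL M_416, the lowest BL mouse, it was 0.38, the upper end of the range with 1 mouse left out. That mouse was picked after its value was seen, so this difference tests nothing.

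Of 4388 probe sets that passed a filter on flat signals, 212 differed between BL and AT *BRAF*(+) at an adjusted p under 0.05 (limma, Benjamini-Hochberg), which is 4.83%. In BL 193 were higher (4.40%) and 19 were lower (0.433%). At an unadjusted p under 0.05 there were 1254, of which 1029 were higher and 225 lower in BL. Only 76 of the 212 carried 1 gene symbol, and they stood for 64 genes, 52 higher and 12 lower in BL.

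A further 114 of the 212, 108 of them higher in BL, lay in a run of 6617 probe sets that precede the first annotated one and have no gene in the annotation used. The annotation does not say whether they are control probe sets. The mean signal of the run was 5.83 to 6.12 in BL (median 5.97) against 5.71 to 5.88 in AT *BRAF*(+) (median 5.83), and 8 of 10 BL mice lay above all 5 AT *BRAF*(+) mice. The part of this shift in the genes named below was not tested on its own, but with the run's mean as a covariate 2 probe sets were called and none had a gene name. Without the run 105 of 2202 probe sets were called, 92 higher and 13 lower in BL, of which 82 carried 1 symbol.

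The number called turned on single mice. Without AT *BRAF*(+) mouse M_779, the youngest of its group at 7 months, 1 probe set was called. Without BL mouse M_414 there were 4, without M_360 24, without AT M_948 69, without BL M_528 71, without AT M_945 84, without AT M_523 105 and without BL M_80 125. Leaving out BL M_416 or M_649 gave 455 and 497. The probe set called without M_779 has no gene name, nor have the 4 called without M_414. A fit over the 15 mice alone, which does not borrow spread from the other groups, also called 1. The study places its only tg2 mouse of AT *BRAF*(+) in its youngest age class, which only M_779 fits by label age. The part of age, line or single mouse in the dependence on M_779 was not tested.

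**Figure D1:**
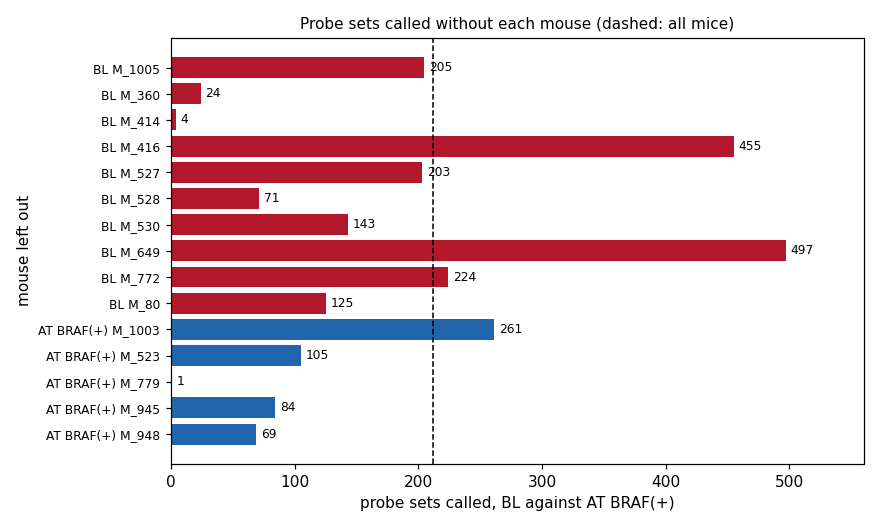
Probe sets called between BL and AT *BRAF*(+) (x axis, count at an adjusted p under 0.05) after leaving out each of the 15 mice in turn (y axis; red bars BL mice, blue bars AT *BRAF*(+) mice); the dashed line marks the 212 called with all mice. Bars run between 1 without AT M_779 and 497 without BL M_649.

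The genes higher in BL included ion channels and transporters. *Slc26a9*, an epithelial anion transporter, measured 5.80, 8.09 and 9.25 as the lowest, median and highest BL mouse, against 7.26, 6.00, 5.27, 6.43 and 7.29 in AT *BRAF*(+) mice M_1003, M_523, M_779, M_945 and M_948. It was 2.61-fold higher in BL (log2 difference 1.38, SE 0.41, limma adjusted p = 0.0443). Of the BL mice 7 stood above every AT *BRAF*(+) mouse, while M_80, M_416 and M_649 lay inside the AT range. AT *BRAF*(-) mice measured 4.83 to 5.40 and overlapped only with M_779.

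*Kcnq5*, a voltage-gated potassium channel of the M-current type, measured 6.03, 7.76 and 8.79 in BL, against 7.04, 5.52, 5.66, 6.29 and 7.10 in AT *BRAF*(+). Its log2 difference was 1.27 (SE 0.36, limma adjusted p = 0.0410). *Cacna2d1*, an auxiliary subunit of voltage-gated calcium channels, measured 6.52, 7.68 and 8.65 in BL and 7.35, 6.15, 5.97, 6.69 and 7.20 in AT *BRAF*(+). The difference was 0.99 (SE 0.27, adjusted p = 0.0379), and another probe set of *Cacna2d1* gave 0.73 with an adjusted p of 0.0791. *Heph*, the copper-dependent ferroxidase that works with iron export, measured 7.71, 9.13 and 9.76 in BL and 8.81, 7.34, 7.12, 7.84 and 8.35 in AT *BRAF*(+) (difference 1.03, SE 0.28, adjusted p = 0.0379). In all 3 genes M_779 was the lowest or next to lowest of the AT mice, and M_1003 or M_948 was the highest. *Slc15a2*, a peptide transporter, was higher by 0.82 (SE 0.25, adjusted p = 0.0457).

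Genes of matrix and cell surface came next. *Prg4*, which encodes lubricin, had the largest difference among called genes, 1.86 (SE 0.54, limma adjusted p = 0.0430), a fold of 3.64. It measured 4.40, 7.28 and 9.31 in BL, against 5.41, 5.07, 4.67, 5.31 and 5.36 in AT *BRAF*(+). The AT mice were close together and the BL mice spread over a wide range, with 8 above and M_416 below every AT mouse. AT *BRAF*(-) mice reached 7.36, so that a high *Prg4* signal also occurred in a gland with no transgene RNA.

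*St8sia6*, a sialyltransferase, measured 8.27, 9.96 and 10.62 in BL and 9.76, 7.40, 7.31, 9.35 and 9.77 in AT *BRAF*(+) (difference 1.09, SE 0.33, adjusted p = 0.0493). Here the AT mice were uneven, with M_523 and M_779 more than 1 log2 unit below the other 3. *Adamts6* and *Adam12*, metalloproteases of the matrix and the cell surface, were higher by 0.96 (adjusted p = 0.0283) and 0.74 (adjusted p = 0.0493). *Col9a1*, a collagen of cartilage, was higher by 0.76 (adjusted p = 0.0445), and *Adgrg6*, an adhesion receptor, by 0.92 (adjusted p = 0.0379). *Adamts6* did not overlap between the groups, at 5.46 to 6.97 in BL against 4.66 to 5.41 in AT *BRAF*(+).

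*Sptlc3*, a subunit of the enzyme that starts sphingolipid synthesis, measured 6.86, 8.93 and 9.36 in BL, against 8.62, 6.44, 5.82, 7.67 and 8.16 in AT *BRAF*(+) (difference 1.29, SE 0.38, limma adjusted p = 0.0431). *Ankrd22*, an ankyrin repeat protein, measured 7.25, 8.60 and 9.50 in BL and 8.17, 6.07, 6.19, 7.55 and 7.73 in AT *BRAF*(+) (difference 1.24, SE 0.32, adjusted p = 0.0296). All AT *BRAF*(+) mice were above all AT *BRAF*(-) mice, where *Sptlc3* reached 5.46 and *Ankrd22* 5.35. *Filip1*, which encodes a partner of filamin A, measured 6.67, 7.82 and 8.47 in BL, against 6.93, 6.67, 6.14, 6.94 and 7.06 in AT *BRAF*(+) (difference 0.99, SE 0.24, adjusted p = 0.0277). The zinc finger gene *Zfp975* was higher by 1.04 (adjusted p = 0.0273) and *4921509C19Rik* by 1.40 (adjusted p = 0.0379).

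Among signalling genes, *Malt1*, a paracaspase of NF-kappaB signalling, was higher by 0.98 (SE 0.24, limma adjusted p = 0.0277), at 8.55, 9.59 and 10.28 in BL against 9.40, 8.22, 8.00, 8.45 and 8.90 in AT *BRAF*(+). The tyrosine phosphatases *Ptpn13* and *Ptpn2* were higher by 0.85 (adjusted p = 0.0277) and 0.80 (adjusted p = 0.0294). *Anln* and *Arhgap11a*, which act at the contractile ring and on RhoA in dividing cells, were higher by 0.88 (adjusted p = 0.0433) and 0.71 (adjusted p = 0.0431). *Pnp*, of purine salvage, was higher by 0.79 (adjusted p = 0.0427). These genes were named after their values had been seen, as were the other genes outside the 24 with the largest differences.

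**Figure D2:**
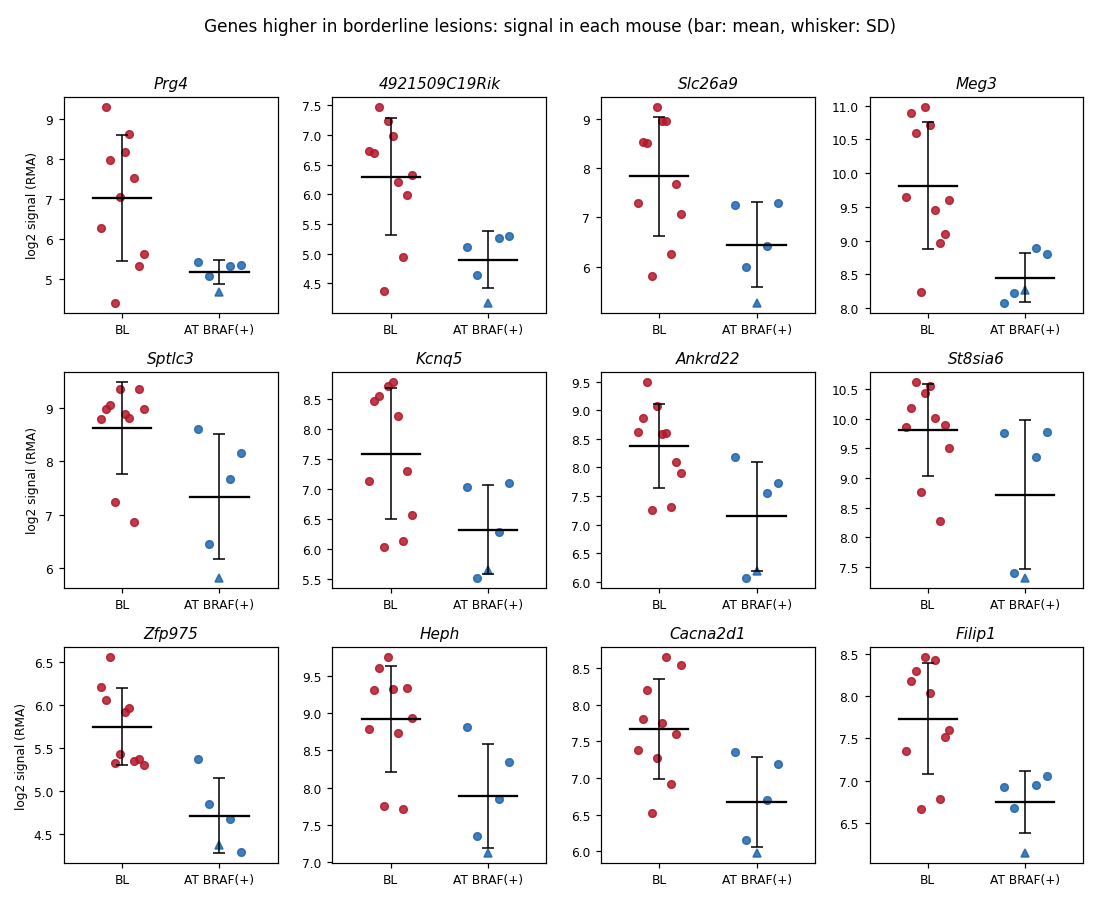
Log2 signal (y axis) of the 12 genes with the largest called increase in each BL mouse (red, left) and AT *BRAF*(+) mouse (blue, right); bars are means and whiskers SD (n = 10 BL and n = 5 AT *BRAF*(+)), and the triangle is AT mouse M_779. None of the 12 separated the groups completely, and M_779 was the lowest of the 15 mice in 7 of them.

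Noncoding RNAs were among the calls. *Meg3*, an imprinted long noncoding RNA whose promoter is known for a cAMP response element in human, measured 8.23, 9.62 and 10.98 in BL, against 8.08, 8.22, 8.27, 8.89 and 8.80 in AT *BRAF*(+). It was 2.58-fold higher in BL (log2 difference 1.37, SE 0.40, limma adjusted p = 0.0430), with 9 of 10 BL mice above all AT *BRAF*(+) mice and all 10 above all AT *BRAF*(-) mice. *Airn*, the antisense imprinted RNA of the *Igf2r* locus, lay at 9.09 to 9.92 in BL and at 8.49 to 9.04 in AT *BRAF*(+) (difference 0.68, SE 0.20, adjusted p = 0.0427). The probe sets named for the small nucleolar RNAs *Snora69*, *Snora75*, *Snora20* and *Snord15a* were higher by 0.83, 0.81, 0.82 and 0.73, with limma adjusted p values between 0.0277 and 0.0430. *Gas5*, a host gene of small nucleolar RNAs, had positive differences on 4 of 4 probe sets (0.52 to 0.87), of which 3 were tested and 1 was called (0.87, limma adjusted p = 0.0288), and its brightest probe set was removed by the flat filter.

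*Xist*, which coats the inactive X chromosome and is silent in males, measured 11.50 to 12.10 in the 8 BL females and 10.80 to 11.06 in the 4 AT *BRAF*(+) females. The BL males measured 4.53 and 4.83 and the AT *BRAF*(+) male M_523 4.82, as their labels would have it. With sex in the model the difference was 0.61 (SE 0.18, limma adjusted p = 0.0455). The females of the groups did not overlap and the males were at the same level.

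The probe set named for *Mir680-1* was also called, higher by 0.81 (SE 0.20, limma adjusted p = 0.0277), at 6.17, 6.63 and 7.26 in BL against 5.94, 5.93, 5.92, 5.75 and 5.75 in AT *BRAF*(+). All BL mice lay above all AT *BRAF*(+) mice. The mature form was not measured apart from its precursor. Its sequence is shown because it was the only miRNA gene among the calls, with the seed (bases 2 to 8) in capitals, from RefSeq (GRCm38.p6, chr6:129691541-129691561, plus strand).
mmu-miR-680: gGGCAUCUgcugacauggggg

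Complete separation was rare. Of the 52 genes called higher, 9 had a called probe set on which every BL mouse was above every AT *BRAF*(+) mouse (*Adamts6*, *Airn*, *Cep192*, *Dnajc13*, *Mir680-1*, *Snora69*, *Snora75*, *Zfp595* and *Zfp949*), beside 1.16% of the 4388 probe sets. Of the 12 called lower, *Ndufb8* was the 1 with every BL mouse below, beside 0.114%. The genes were called on the contrast of the same mice, so these counts describe them and test nothing. A gene counted if any called probe set separated the groups, whereas the percentages are per probe set. *Dnajc13*, an endosomal co-chaperone, had 15 probe sets with differences of 0.42 to 0.90, all positive, of which 9 were called. With the mean of the unlisted run as a covariate the difference was 0.34 for *Airn*, 0.35 for *Xist*, 0.40 for *Snora75* and 0.47 for *Mir680-1*, while it was 0.73 for *Snord15a*, 1.07 for *Meg3* and 1.51 for *Slc26a9*.

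AP-1 is a textbook end point of ERK signalling, so the promoters of the 24 genes were read for its site. RefSeq promoters (GRCm38.p6, 250 bases before to 50 after the start) were given for 19 of the 24. The letters TGANTCA, searched on both strands, were in the promoter of 1 of 19 genes (*Ankrd22*), beside 7.81% of all 32851 promoters of that length. The cAMP response element TGACGTCA, also searched on both strands, was in 1 of 19 (*Meg3*), beside 1.79% of all promoters. A gene counted if any of its promoters matched, whereas the percentages are per promoter. Counted by promoter, each motif was in 1 of the 26 promoters of these 19 genes. Both are shown with the match in capitals, *Meg3* at chr12:109540746-109541045 (plus strand, match 57 bases before the start) and *Ankrd22* at chr19:34165992-34166291 (minus strand, match 10 bases before the start). A match is a description of the letters and not evidence of binding.
Meg3: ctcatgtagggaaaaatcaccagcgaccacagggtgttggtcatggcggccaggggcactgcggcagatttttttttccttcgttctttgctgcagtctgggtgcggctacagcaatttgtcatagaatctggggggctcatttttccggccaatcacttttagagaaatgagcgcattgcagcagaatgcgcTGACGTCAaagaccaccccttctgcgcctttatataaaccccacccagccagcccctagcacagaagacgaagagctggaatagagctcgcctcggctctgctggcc
Ankrd22: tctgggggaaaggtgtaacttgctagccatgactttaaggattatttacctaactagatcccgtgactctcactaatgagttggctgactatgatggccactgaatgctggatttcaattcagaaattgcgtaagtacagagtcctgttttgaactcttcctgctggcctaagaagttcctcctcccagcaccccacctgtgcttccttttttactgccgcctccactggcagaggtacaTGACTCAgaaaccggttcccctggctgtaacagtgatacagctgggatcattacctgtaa

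The 12 genes lower in BL included several of mitochondria and central carbon metabolism. *Ndufb8*, a subunit of respiratory complex I, measured 8.07, 8.82 and 9.49 in BL, against 9.73, 9.53, 9.58, 9.81 and 9.50 in AT *BRAF*(+). It was 1.81-fold lower in BL (log2 difference -0.86, SE 0.22, limma adjusted p = 0.0296), and every BL mouse was below every AT *BRAF*(+) mouse, the closest pair being BL M_80 at 9.49 and AT M_948 at 9.50. *Mpc1*, a subunit of the mitochondrial pyruvate carrier, measured 9.20, 9.67 and 10.42 in BL and 10.15, 10.27, 10.37, 10.60 and 10.70 in AT *BRAF*(+) (difference -0.68, SE 0.20, adjusted p = 0.0427). *Tkt*, transketolase of the pentose phosphate pathway, measured 7.83, 8.36 and 8.84 in BL and 8.83, 9.01, 8.94, 9.14 and 8.93 in AT *BRAF*(+) (difference -0.64, SE 0.19, adjusted p = 0.0444). For both genes 9 of 10 BL mice were below all AT *BRAF*(+) mice. *Efhd1*, a calcium-binding protein of mitochondria, differed by -0.88 (adjusted p = 0.0493).

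*Dpep1*, a membrane dipeptidase, had the largest decrease, -1.24 (SE 0.37, limma adjusted p = 0.0446), at 7.00, 8.80 and 9.84 in BL against 9.94, 9.79, 9.94, 10.04 and 10.09 in AT *BRAF*(+). The AT *BRAF*(-) mice were at the AT *BRAF*(+) level, 9.74 to 10.39, and 8 BL mice were below both. The channels *Cacna1h* (a T-type calcium channel) and *Kcnk3* (a potassium leak channel) differed by -0.82 (SE 0.24, adjusted p = 0.0434) and -0.73 (SE 0.18, adjusted p = 0.0277). *Kcnk3* measured 6.82, 7.23 and 7.69 in BL and 7.68, 7.98, 8.30, 8.22 and 7.75 in AT *BRAF*(+), and *B3galt1*, a galactosyltransferase, differed by -0.71 (adjusted p = 0.0379).

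*Glp1r*, the receptor of glucagon-like peptide 1, which in the rodent thyroid sits on C cells, measured 4.86, 5.23 and 5.83 in BL, against 5.83, 6.57, 6.95, 6.24 and 5.70 in AT *BRAF*(+). The difference was -0.93 (SE 0.22, limma adjusted p = 0.0273), and 9 BL mice were below all AT *BRAF*(+) mice. *Lgi3*, a secreted protein related to a neuronal ligand, measured 6.44, 7.47 and 8.91 in BL and 7.73, 9.48, 9.70, 8.61 and 8.18 in AT *BRAF*(+) (difference -1.12, SE 0.32, adjusted p = 0.0379). *Sfrp5*, a secreted Wnt inhibitor, measured 4.94, 5.72 and 6.26 in BL and 5.34, 7.52, 7.59, 6.61 and 5.78 in AT *BRAF*(+) (difference -0.94, SE 0.28, adjusted p = 0.0433). In all 3 genes M_523 and M_779 were the highest AT *BRAF*(+) mice, and M_1003 and M_948 the lowest. *S100b*, a calcium-binding protein of Schwann cells and adipocytes, differed by -0.89 (SE 0.26, adjusted p = 0.0432). Of 5 measured Schwann cell genes 4 had negative differences. The 1 positive difference (0.77) had an unadjusted p under 0.05 and was not called.

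**Figure D3:**
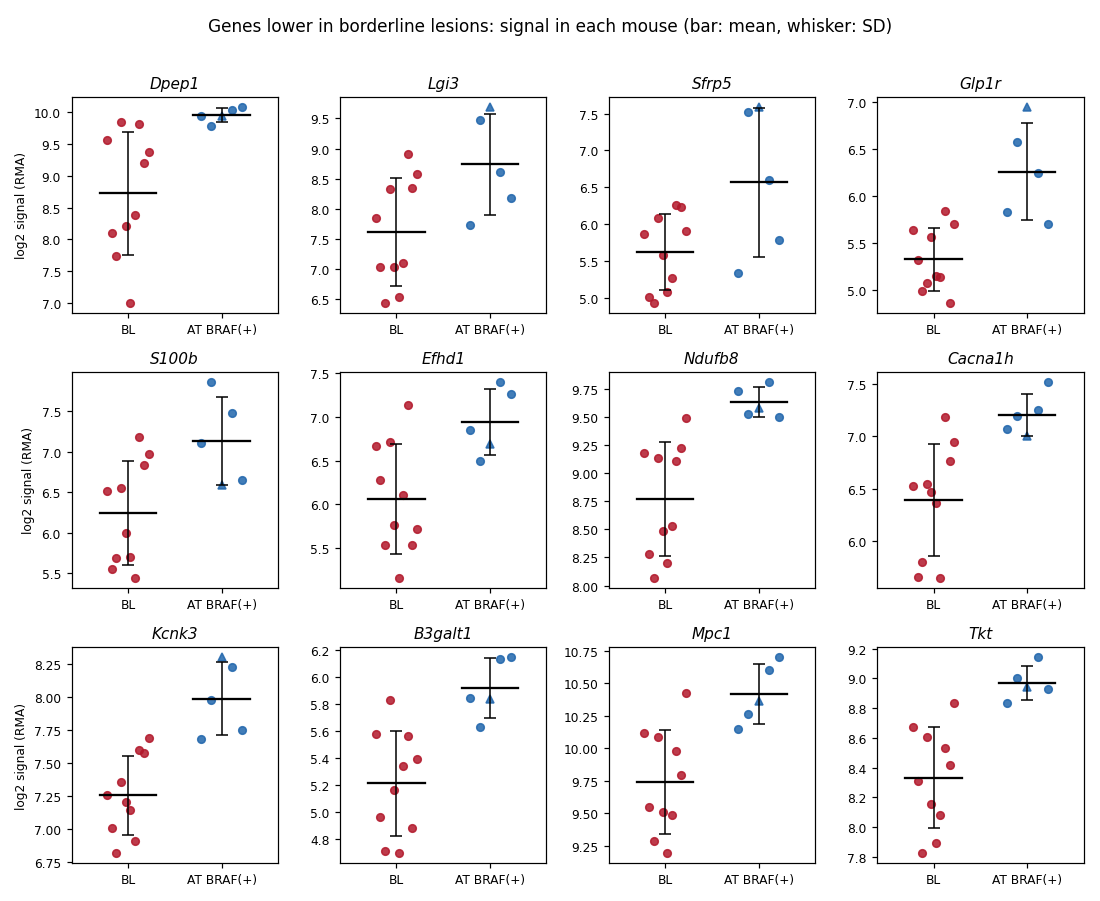
Log2 signal (y axis) of the 12 genes called lower in each BL mouse (red, left) and AT *BRAF*(+) mouse (blue, right); bars are means and whiskers SD (n = 10 BL and n = 5 AT *BRAF*(+)), and the triangle is AT mouse M_779. *Ndufb8* was the only gene of the 24 with no overlap.

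Markers of other cell types also varied between these mice. C cell and neuroendocrine markers averaged 5.85 to 7.85 in BL (median 6.50) and 6.22 to 8.08 in AT *BRAF*(+) (median 7.05), with AT M_779 at 8.08, AT M_523 at 7.93 and BL M_649 at 7.85. None of 7 tested markers was called, and 4 had an unadjusted p under 0.05 and were lower, beside 8.99% of the 1736 tested probe sets with 1 gene symbol. They were *Scg3* (-1.17, adjusted p = 0.0874), *Pcsk1* (-1.05, adjusted p = 0.0772), *Snap25* (-0.82, adjusted p = 0.0671) and *Ret* (-0.73, adjusted p = 0.0708), of secretory granules, synaptic fusion and the GDNF receptor. The list's median over 10 measured members was -0.63, beside -0.04 over all genes, and it was -0.41 without AT M_779 and -0.19 without M_523 and M_779. The part of C cell content in *Glp1r*, *Lgi3* and *Sfrp5* was not tested.

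Brown adipocyte markers averaged 6.02 to 8.94 in BL (median 7.15) and 7.52 to 8.78 in AT *BRAF*(+) (median 8.26). *Ucp1*, the uncoupling protein that defines brown fat, measured 4.24, 7.01 and 10.56 in BL and 9.95, 9.82, 8.75, 10.55 and 9.75 in AT *BRAF*(+) (difference -2.83, SE 0.91, limma adjusted p = 0.0561, not called). Of 6 tested members 5 had an unadjusted p under 0.05 and were lower, among them *Cidea* (-1.33, adjusted p = 0.107), *Cox8b* (-1.21, adjusted p = 0.133) and *Cox7a1* (-1.05, adjusted p = 0.0939), and 0 were called. Among the tested probe sets with 1 gene symbol 8.99% were lower at an unadjusted p under 0.05. White adipocyte markers had negative differences in 11 of 11 measured (median -0.36, or -0.22 without AT M_945), with 1 of 10 tested at an unadjusted p under 0.05. With scores for skeletal muscle, white and brown fat in the model, the difference became -0.57 for *Ndufb8*, -0.37 for *Mpc1*, -0.52 for *Kcnk3*, -0.52 for *S100b* and -0.62 for *Dpep1*, and no named gene was called.

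Oxidative phosphorylation genes had negative differences in 20 of 22 measured (median -0.23). *Ndufb8* was the 1 call among 6 tested, and 4 of 6 had an unadjusted p under 0.05 and were lower, among them *Uqcrq* (-0.54, adjusted p = 0.0713), a subunit of complex III. Among all tested probe sets 0.433% were called lower. Of those with 1 gene symbol 8.99% were lower at an unadjusted p under 0.05. Fatty acid synthesis genes had 4 of 5 tested lower at an unadjusted p under 0.05, beside the same 8.99%, and none called (median -0.30). They included *Thrsp* (-1.15, adjusted p = 0.127), a thyroid hormone responsive lipogenic factor, and *Fasn* (-0.51, adjusted p = 0.173). With the muscle and adipocyte scores in the model the list medians were -0.11 for oxidative phosphorylation and -0.01 for fatty acid synthesis.

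Skeletal muscle genes were high in 2 BL mice, M_527 (mean 8.96) and M_530 (10.21), while the other 8 BL mice were at 5.32 to 5.78 and the AT *BRAF*(+) mice at 5.58 to 5.91. *Acta1*, skeletal muscle actin, reached 12.76 in BL against 6.60 in AT *BRAF*(+). M_530 also read 12.55 for *Krt13*, a keratin of squamous epithelium such as the oesophagus, and M_527 and M_649 read 12.56 and 11.68 for *Pth*, parathyroid hormone, which lay at 3.11 to 4.10 in the other BL mice and at 3.04 to 3.59 in AT *BRAF*(+). None of 18 tested muscle genes was called. No AT *BRAF*(+) mouse showed such signals. Without M_530 143 probe sets were called, and without M_527 203.

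**Figure D4:**
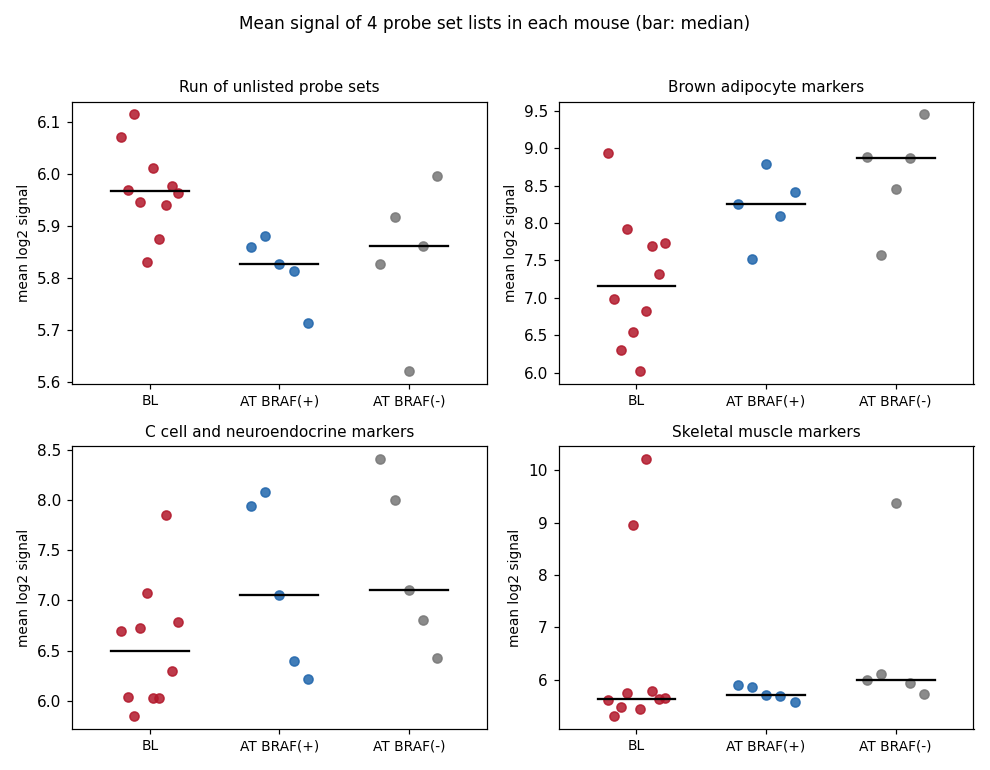
Mean log2 signal (y axis) in each mouse of the run of unlisted probe sets and of the brown adipocyte, C cell and skeletal muscle markers, in BL (red), AT *BRAF*(+) (blue) and AT *BRAF*(-) (grey); bars are medians. The run is higher in most BL mice (median 5.97 against 5.83 in AT *BRAF*(+)), brown adipocyte markers are lower (7.15 against 8.26), and muscle markers are high in 2 BL mice.

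Genes of MAPK output had positive differences in 19 of 20 measured (median 0.21, or 0.07 with the muscle and adipocyte scores in the model), but 0 of 10 tested were called. The median was -0.04 over all genes and 0.28 over the 4388 filtered probe sets, named or not. At an unadjusted p under 0.05, 5 of 10 were higher, beside 18.1% of the tested probe sets with 1 gene symbol. *Etv1* came closest to a call (0.72, SE 0.22, limma adjusted p = 0.0509), at 8.16, 9.25 and 9.77 in BL against 9.12, 7.52, 7.98, 8.58 and 8.93 in AT *BRAF*(+). With no flat filter its adjusted p was 0.0423. The related ETS factors *Etv5* and *Etv4* had differences of 0.57 (adjusted p = 0.0791) and 0.53 (adjusted p = 0.0731), *Spred1* 0.67 (adjusted p = 0.0639) and *Ccnd1*, cyclin D1, 0.70 (adjusted p = 0.0898). The feedback phosphatase *Dusp6* differed by only 0.16 (adjusted p = 0.570), and all 10 BL mice were above all AT *BRAF*(-) mice for it.

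Markers of human PTC had positive differences in 15 of 19 measured and negative ones in 4 (median 0.22). The median over all genes was -0.04 and over the filtered probe sets 0.28. None of 11 tested was called. At an unadjusted p under 0.05, 5 of 11 were higher, beside 18.1% of the tested probe sets with 1 gene symbol. The list's median was 0.08 without AT M_779, 0.13 without AT M_523, 0.02 without both and 0.13 with the muscle and adipocyte scores in the model. *Chil1*, a secreted chitinase-like glycoprotein, measured 9.88, 11.50 and 12.18 in BL and 10.82, 8.64, 8.67, 10.96 and 11.35 in AT *BRAF*(+) (difference 1.23, SE 0.39, limma adjusted p = 0.0556), against 4.96 to 5.51 in AT *BRAF*(-). *Sftpb*, a surfactant protein of the lung, measured 11.19, 12.54 and 12.79 in BL and 12.42, 10.91, 10.19, 12.22 and 12.30 in AT *BRAF*(+) (difference 0.70, adjusted p = 0.0940), against 6.05 to 6.40 in AT *BRAF*(-). For both genes most of the distance from AT *BRAF*(-) was already present in AT *BRAF*(+) thyroids.

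The 18 genes that the study picked on some of these mice are not independent evidence of direction. None of the 16 that passed the flat filter was called between BL and AT *BRAF*(+). At an unadjusted p under 0.05, 5 were higher and 2 lower, *Dio1* (-1.06) among the lower. The shares over tested probe sets with 1 gene symbol were 18.1% higher and 8.99% lower. The median over all 18 was 0.24, or 0.15 without AT M_779 and 0.39 without AT M_1003. Over all genes the median was -0.04, and over the filtered probe sets 0.28. *Rasa1*, a RAS GTPase activating protein, differed by 0.53 (adjusted p = 0.0886), *Itpr3*, a calcium release channel, by 0.48 (adjusted p = 0.107), *Erbb3*, a neuregulin receptor, by 0.46 (adjusted p = 0.107), *Fn1*, fibronectin, by 0.54 (adjusted p = 0.144) and *Met*, the hepatocyte growth factor receptor, by 0.38 (adjusted p = 0.164).

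Thyroid differentiation genes were not called in either direction (0 of 6 tested; median of 15 measured -0.18). The median turned on single mice, at -0.04 without BL M_360 or AT M_945, -0.05 without AT M_779, -0.07 without BL M_414, -0.09 without BL M_530, -0.11 without AT M_523, -0.28 without BL M_649 and -0.35 without AT M_1003. With the muscle and adipocyte scores it was -0.08. *Dio1*, the deiodinase that converts thyroxine to its active form, measured 7.27, 9.69 and 11.05 in BL and 9.85, 11.35, 11.08, 10.55 and 9.96 in AT *BRAF*(+) (difference -1.06, SE 0.46, limma adjusted p = 0.129). The BL mice divided, with 5 at 7.27 to 8.74 and 5 at 10.63 to 11.05. *Slc5a5*, the sodium iodide symporter, differed by -0.18 (SE 0.39, adjusted p = 0.768), *Tshr*, the thyrotropin receptor, by -0.34 (adjusted p = 0.398) and *Nkx2-1*, a lineage transcription factor outside the flat filter, by 0.06. *Gpx3*, a secreted glutathione peroxidase, differed by -0.71 (adjusted p = 0.105).

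Matrix genes of tendon and cartilage spread widely among BL mice. *Thbs4*, a thrombospondin of tendon, measured 5.55, 7.74 and 10.11 in BL and 6.09, 5.75, 5.55, 6.16 and 5.89 in AT *BRAF*(+) (difference 1.91, SE 0.69, limma adjusted p = 0.0772). *Fmod*, fibromodulin, measured 5.65, 7.59 and 10.24 in BL and 7.61, 5.54, 5.87, 6.19 and 6.84 in AT *BRAF*(+) (difference 1.48, adjusted p = 0.107). *Col9a1* was the 1 call among 6 tested, beside 4.40% of all tested probe sets called higher. The list's median over 14 measured genes was 0.00, between -0.07 without BL M_649 and 0.08 without AT M_779. *Vcan*, a large proteoglycan, differed by 0.89 (adjusted p = 0.0537), with 8 BL mice above all AT *BRAF*(+) mice.

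Proliferation genes had positive differences in 21 of 23 measured (median 0.30), and 0 of 9 tested were called. The list's median was between 0.20 without AT M_945 and 0.40 without AT M_1003, beside -0.04 over all genes and 0.28 over the filtered probe sets. At an unadjusted p under 0.05, 2 of 9 were higher, beside 18.1% of the tested probe sets with 1 gene symbol. They were *Prc1* (0.62, adjusted p = 0.0874) and *Cdk1* (0.56, adjusted p = 0.118), of the central spindle and mitotic entry. *Mki67*, the Ki-67 antigen, measured 5.68, 6.88 and 7.53 in BL and 6.94, 6.11, 5.74, 6.00 and 6.35 in AT *BRAF*(+). Among immediate early genes *Fos*, an AP-1 subunit, had the opposite sign, at 5.76, 6.08 and 6.47 in BL against 7.34, 6.10, 6.69, 7.29 and 7.23 in AT *BRAF*(+) (difference -0.84, SE 0.27, limma adjusted p = 0.0561).

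**Figure D5:**
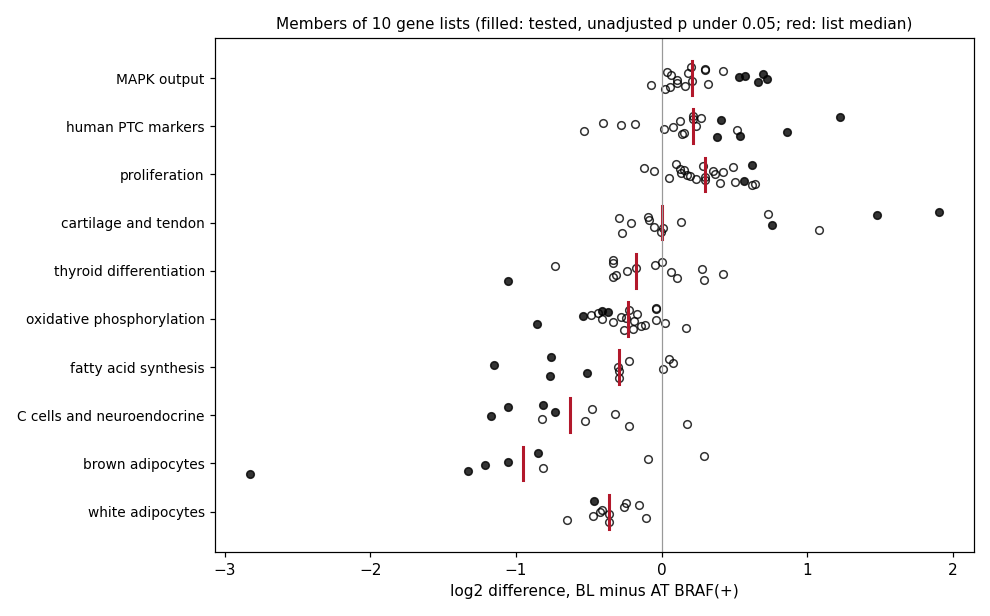
Log2 difference, BL minus AT *BRAF*(+) (x axis), of each measured member of 10 gene lists (y axis); filled points passed the flat filter and had an unadjusted p under 0.05, and red lines are list medians. MAPK output lies mostly above 0 (median 0.21) and brown adipocyte genes mostly below (median -0.95, *Ucp1* at -2.83). The median was -0.04 over all genes and 0.28 over the filtered probe sets.

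The BL mice were not uniform. M_360, M_414 and M_528 were above all AT *BRAF*(+) mice in 12 of 12 of the genes called most increased and below all of them in 12 of 12 of the genes called decreased. M_416 was above in 0 and below in 7, and M_649 was above in 2 and below in 5. *Dio1* and *Ucp1* measured 11.05 and 9.30 in M_416, and 10.94 and 8.66 in M_649. These genes were chosen from the contrast of the same mice, so the counts describe how the mice differ and test nothing.

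PTC and BHL *BRAF*(+) mice shared the flat filter, the sex term and the estimate of spread with the fit that chose these genes, and PTC, BHL and BL are set here against the same 5 AT *BRAF*(+) mice. Each of 10 PTC mice was above all AT *BRAF*(+) mice in 9 to 12 of the 12 increased genes and below in 8 to 12 of the 12 decreased ones. For the 4 BHL *BRAF*(+) mice the counts were 9 to 12 in both sets. The AT *BRAF*(-) mice were above in 0 to 2 and below in 0 to 4.

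Tested directly, PTC against BL gave no call on the 4388 probe sets (0%, limma, smallest adjusted p 0.897, 150 at an unadjusted p under 0.05). BL and BHL *BRAF*(+) also gave 0% (smallest adjusted p 0.189, 286 at an unadjusted p under 0.05). The difference with the smallest p against BHL *BRAF*(+) was that of *Grp*, gastrin-releasing peptide, a neuroendocrine product, at 1.81 on the log2 scale (BL minus BHL), and *Grp* was called when arrays were weighted by quality. Over the 24 genes PTC minus BL ran between -0.52 for *Lgi3* and 0.93 for *Prg4*, and BL minus BHL *BRAF*(+) between -1.32 for *Prg4* and 0.68 for *Lgi3*. A missing call does not show that the lesions were alike.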

How the data were processed

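The arrays were RMA normalized by the authors (software version not stated), and the deposited values are log2 signals of 35556 probe sets in 38 mice. Groups, sex and age came from the labels. Gene names came from the platform annotation: 21789 probe sets had 1 symbol, and a gene was read on its brightest probe set over the 38 mice. Following the study, a probe set was kept if its signal lay 1.5-fold or more from its median in 20% or more of the mice. The study also removed control probe sets, which the annotation used here does not mark.

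Fits used limma 3.58.1 in R 4.3.3 (lmFit, eBayes) over all 38 mice, with 6 groups and sex, and were tested on simulated data. An adjusted p under 0.05 (Benjamini-Hochberg) was a call. The number of arrays limits the precision, and p-values cover the spread between mice. Figures were drawn with Python 3.11.15, matplotlib 3.10.9 and numpy 2.4.6. No paired analysis was possible because mouse numbers are not shared between groups.

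Named genes were the 12 highest and 12 lowest called genes by log2 difference, *Braf*, thyroid differentiation genes, the 18 study genes and up to 4 members of each of 42 lists with the smallest p. The members and lists were chosen with earlier results of these data known. Called genes and list members outside this rule were named after their values were seen. Alternatives changed the filter, scaling, variance model, covariates and mice. Of these, 4 were chosen after seeing the data: without the unlisted run, named probe sets alone, the run's mean as a covariate, and list medians without each mouse.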

Additional observations from a re-analysis of the deposited data

Results flagged for a closer look

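In the 105 genes checked, each in BL and in AT *BRAF*(+), and in the mean of the unlisted run, 8 values stood far from the rest of their group, where chance alone gives about 1 in 20 of the 212 groups checked. In BL, M_530 had the highest *Krt13* (12.55, next mouse 5.21) and the lowest *Tg* (13.30, next mouse 13.53), and M_649 had the lowest *Mki67* (5.68, next mouse 6.71). In AT *BRAF*(+), M_779 had the highest *Grp* (12.40, next mouse 11.15) and the lowest *Erbb3* (9.23, next mouse 9.66). M_1003 had the lowest *Pax8*, a thyroid lineage factor (11.09, next mouse 11.67). M_945 had the highest *Cdh19*, a cadherin of Schwann cells (5.57, next mouse 4.59). M_523, the only male of its group, had the lowest *Xist* (4.82, next mouse 10.80).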

How the results depend on the processing

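The count of 212 probe sets became 197 to 261 with an unmoderated model, an intensity trend with robust variance, a 1.5-fold minimum or neighbouring mouse numbers as a random block, and each of these shared 196 to 207 with the 212. It was 146 with no covariates. The count was 1271 with no flat filter (704 higher and 567 lower in BL), 405 with the filter over the 15 mice, 1047 with a low signal filter (725 higher and 322 lower in BL) and 398 with array weights. It was 84 with arrays centred on their medians, 94 with sex and age, and 62 in females. It was 1 over the 15 mice alone, 1 without M_523 and M_779, 1 without the BL and AT *BRAF*(+) mice under 9 months, and 1 with muscle and adipocyte scores. Of the alternatives chosen after seeing the data, the fit without the unlisted run called 105, probe sets with 1 symbol 103, and the run's mean as a covariate 2. Leaving out 1 mouse gave 1 to 497. BL against BHL *BRAF*(+) gave 1 with array weights and 0 in the other alternatives run, and PTC against BL gave 0 in every alternative run.

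The 46 called genes checked kept their direction in all 1552 values under alternatives, passing the threshold in 834 and missing it in 718. These genes were chosen from the same mice that the alternatives refit, so a kept direction tests nothing. The difference fell as low as 0.36 for *Sptlc3* and 0.22 for *St8sia6*. With no flat filter 5 further list members were called: *Etv1* (0.72), *Tjp1* (0.48) and *Igf1r* (0.47) higher, and *Cited1* (-0.53) and *Syp* (-0.47) lower in BL. Without M_523 and M_779 the medians of 4 lists moved by more than their spread among BL mice, to -0.15 for surfactant genes, -0.39 for macrophage genes, -0.65 for MHC class II genes and -0.13 for receptor tyrosine kinases. The *Braf* difference was 0.27 to 0.38 with 1 mouse left out. The cause of these shifts was not tested. With 5 AT *BRAF*(+) mice the calls rest on few arrays.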

Other observations

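Signalling and immune genes outside the comparison above showed few differences between BL and AT *BRAF*(+). *Igf1r*, the receptor of insulin-like growth factor 1, differed by 0.47 (limma adjusted p = 0.0791), with 9 of 10 BL mice above all AT *BRAF*(+) mice. *Tgfbi*, a matrix protein induced by TGF-beta, differed by 0.84 (adjusted p = 0.0683), and *Postn*, periostin, by 0.79 (adjusted p = 0.112). *Timp1*, an inhibitor of matrix proteases, differed by 0.86 (adjusted p = 0.151). The lists were more even than these members. Receptor tyrosine kinases had 8 positive and 8 negative differences (median -0.01). TGF-beta and activin genes had 9 positive and 7 negative (median 0.08, or -0.02 without AT M_779). Matrix proteases and inhibitors had 16 positive and 2 negative (median 0.15, or -0.02 without AT M_779).

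Of the immune lists no member was called. The macrophage list had a median of 0.03, with 10 of 16 measured members positive and 6 negative. The median was -0.16 without AT M_779. Of 9 tested members *Msr1*, a scavenger receptor, was the 1 with an unadjusted p under 0.05 (0.58, adjusted p = 0.0915, 8 BL mice above all AT *BRAF*(+) mice). The MHC class II list had 7 of 9 measured members negative (median -0.23), and 1 of 8 tested was higher at that p. Its median was -0.39 without AT M_779, -0.10 without AT M_1003 and 0.05 with the muscle and adipocyte scores in the model. Among all tested probe sets with 1 gene symbol 18.1% were higher at that p. Among chemokines *Cxcl14* differed by 0.71 (adjusted p = 0.105) and *Cxcl13*, which attracts B cells, by -1.06 (adjusted p = 0.143). No tested member of the T cell, B cell, neutrophil and interferon response lists had an unadjusted p under 0.05.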
